A study of Mus musculus with 6 samples.

Results

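The baseline transcriptome described here is that of N2A cells, a mouse neuroblastoma line, after treatment with an empty vector. It was measured in 3 samples, the ones titled as empty vector treatment, out of 6 in the series. The other samples received a short hairpin RNA against the splicing regulator PTB and are not described. The cells carried the vector without a hairpin, grew in DMEM with serum, and are called biological replicates 1, 2 and 3 in the labels, which do not say whether they came from separate cultures, so the spread given here may be partly technical. Total RNA depleted of ribosomal RNA was hybridised to Affymetrix mouse exon arrays, 1 array per sample, and each deposited value is a linear signal for 1 row, a set of probes that stands for a gene. Of 17213 rows, 15146 carried a single gene symbol, and with the brightest row taken per gene they gave 14807 genes. No untransfected cells are among the samples analysed here, and the labels do not say whether cells that took up the vector were selected. A single cell line is a model of 1 tumour only, and gene-level signals do not show which exons were used.

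Neuroblastoma arises from the sympathoadrenal lineage, the branch of the neural crest that forms sympathetic neurons and the chromaffin cells of the adrenal medulla. A set of transcription factors that includes PHOX2A, HAND2, GATA2 and GATA3 holds this identity, and in mature cells it goes with the enzymes that make noradrenaline. Chromaffin cells and sympathetic neurons also store granins and neuropeptides in dense-core granules, and sympathetic neurons carry peripherin filaments.

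The table holds no detection calls, so 649 genes used mainly in sense organs, hair, epididymis, skin and lens (olfactory, vomeronasal and taste receptors, hair keratin-associated proteins, beta-defensins and lens crystallins) served as a yardstick. Their median signal was 11, 11 and 10 on arrays 1, 2 and 3, and the 95th percentile, taken as the threshold on each array, was 102.6, 104.8 and 82.6. A gene counted as above background when it exceeded the threshold on all 3 arrays. By that rule 8382 of 14807 genes, or 56.6%, were above background, 668 passed on some arrays only and 5757 on none. Of the yardstick genes themselves, 19 of 649 passed on all 3 arrays. The distribution of mean signals had a dim and a bright hump with the threshold in the dip between them, and 1191 genes had a lowest array within 1.5 times of the threshold on either side.

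**Figure D1:**
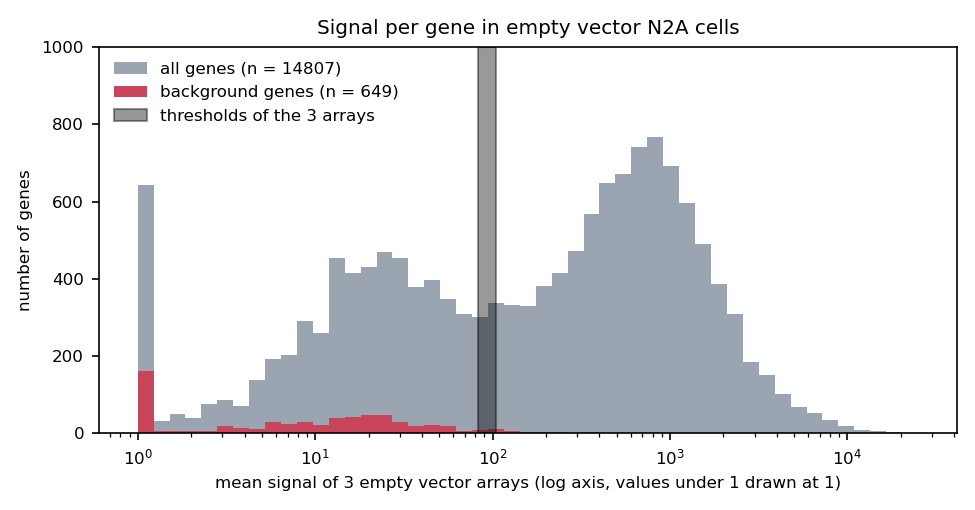
Number of genes (vertical axis) by mean signal over the 3 empty vector arrays (horizontal log axis), for all 14807 genes in grey and the 649 background genes in red, with the thresholds of the arrays as a dark band. The band lies in the dip between the dim and the bright hump, and the background genes lie almost all to its left.

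A signal below the threshold does not show that the RNA is lacking. Rpl31, a protein of the large ribosomal subunit that every cell needs, read 18, 84 and 65, and Rps18 of the small subunit read 101, 132 and 157 (both chosen after their values were seen). Neither cleared the threshold on all 3 arrays, although 41 of 45 measured genes with a cytosolic ribosomal protein symbol did. Probes of different rows also respond differently, so signals of different genes are set side by side as readings of their own rows and not as amounts of RNA. Among 320 genes with several rows, 45 had a brightest row above background and a dimmest row that was not.

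Arrays 1, 2 and 3 had summed signals of 10651755, 11617719 and 12509077, with array medians of 194, 198 and 197. Across the 14807 genes the arrays were close, with Pearson's r between 0.985 and 0.988 for log2(signal + 16), a description across genes that share probes and processing. Only 3 arrays stand behind every mean, which limits its precision.

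The brightest genes included many of protein synthesis and several of protein folding and the cytoskeleton. Eef1a1, the elongation factor that brings aminoacyl-tRNA to the ribosome, read 17653, 18267 and 20108. Its mean of 18676 ± 1278 (SD, n = 3) was the highest of the 14807 genes. Rows with several gene symbols or none were not ranked, and the highest readings of any row were 19830, 20402 and 23431. Rpl41, a small protein of the large ribosomal subunit, came next with 16200, 18619 and 20029. The cytoplasmic actins followed closely, with 15365, 15654 and 18620 for Actb and 14377, 13918 and 17761 for Actg1. The steadiest of the 20 brightest was Rpl10, another protein of the large subunit, at 15726, 16141 and 15986, with a coefficient of variation (the SD as a share of the mean) of 1.31%.

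Among the 20 brightest, 8 were ribosomal protein genes (Rpl41, Rpl17, Rpl10, Rplp0, Rpl5, Rpl4, Rpl9 and Rplp1). The others were the elongation factors Eef1a1 and Eef2, the actins, the tubulin Tubb5, the ATP synthase subunit Atp5b, the folding factors Ppia, Hspa8, Ptges3 and Cct2, the nascent chain factor Btf3 and the RNA-binding protein Pcbp2. Within the 100 brightest genes 23 were ribosomal proteins, 5 translation factors, 6 chaperones or chaperonins and 4 glycolytic enzymes, grouped by symbol. These counts skipped predicted-gene names. The 100 brightest genes with such names kept held 10.1% of the summed signal of all genes. Asns, the enzyme that makes asparagine, stood at rank 23 with 10369, 11281 and 10644, and the cell cycle kinase gene Cdk4 at rank 41 with 7773, 8538 and 9596.

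The transcription factors of the noradrenergic lineage were mostly above background, 14 of 16 measured (87.5%) against 56.6% of all genes, with a median signal of 613.5 against 214 over all genes. Phox2a, a homeodomain factor of autonomic neurons, read 1895, 2027 and 2367, a mean of 2096 ± 244 (SD, n = 3). Hand2, a bHLH factor needed for noradrenergic differentiation, read 1267, 1515 and 1723. Gata2, a zinc-finger factor of the same circuit, read 1396, 1430 and 1189, while its paralog Gata3 was dim but above the threshold at 144, 210 and 170. Phox2a, Hand2 and Gata2 lay far above the threshold on all 3 arrays, and Gata3 lay closer to it. In RNA from a whole culture, fewer cells that use a gene and less RNA per cell cannot be told apart.

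Klf7, a Krüppel-like factor of sensory and sympathetic neurons, was the second brightest of this list at 1564, 1518 and 1762. Sox4, a SOX factor of immature neurons, read 1204, 1285 and 1565. Isl1, a LIM-homeodomain factor, read 586, 488 and 924 and had the widest spread of the list's bright members, with array 3 apart from the others. Insm1, a zinc-finger factor of neuroendocrine cells, read 322, 561 and 473. Below the threshold lay Hand1, the HAND2 paralog, at 87, 95 and 68, and Tfap2b, an AP-2 factor of sympathetic progenitors, at 14, 13 and 15.

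**Figure D2:**
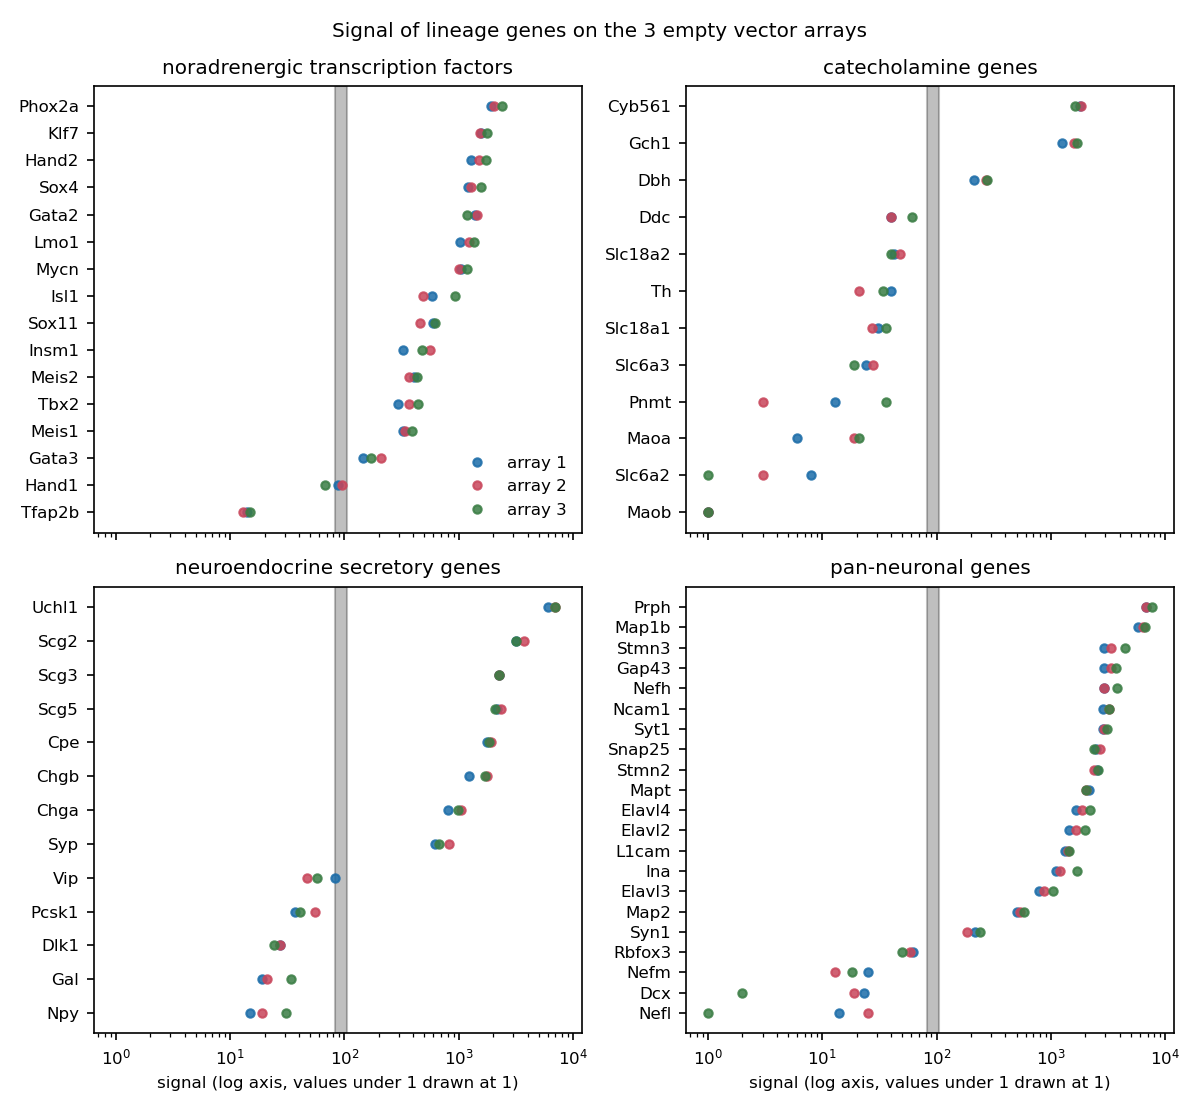
Signal (horizontal log axis) of each measured gene of 4 lineage lists on the 3 empty vector arrays, 1 colour per array, with the thresholds as a grey band. Phox2a, Hand2, Scg2 and Prph lie well to the right of the band on every array, and Th, Slc18a2, Npy and Nefl to its left.

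The catecholamine genes showed a different picture, with 3 of 12 measured members above background (25%, against 56.6% of all genes). Th, tyrosine hydroxylase, the rate-limiting enzyme of the pathway, read 40, 21 and 34. Ddc, the decarboxylase of the next step, read 40, 40 and 61. Dbh, which turns dopamine into noradrenaline, was above the threshold at 211, 268 and 277. Pnmt, which turns noradrenaline into adrenaline, read 13, 3 and 36. Of these enzyme genes only Dbh cleared the threshold, and it did not with the 99th percentile of the background genes, where the list kept 2 members. The vesicle transporter genes Slc18a1 and Slc18a2 were below the threshold on every array (31, 27 and 36 for Slc18a1 and 42, 48 and 40 for Slc18a2), and Slc6a2, the noradrenaline reuptake transporter, read 8, 3 and -1. The other members above the threshold were not specific to catecholamines: Gch1, which starts synthesis of the cofactor tetrahydrobiopterin, at 1244, 1590 and 1699, and the granule cytochrome gene Cyb561 at 1801, 1847 and 1614.

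Several dense-core granule genes were bright, while the neuropeptides on the list were below the threshold. Of 13 measured neuroendocrine secretory genes 8 were above background (61.5%), a share near the 56.6% of all genes. The granin gene Scg2 read 3196, 3709 and 3151, Chgb read 1239, 1752 and 1706, and Chga read 808, 1052 and 991. Cpe, a carboxypeptidase that trims prohormones, read 1753, 1903 and 1849, whereas the prohormone convertase gene Pcsk1 read 37, 55 and 41. The brightest member was Uchl1, a ubiquitin hydrolase abundant in neurons, at 6014, 6968 and 6963. Npy, neuropeptide Y, read 15, 19 and 31, and Vip and Gal were under the threshold on each array as well.

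Of 21 measured pan-neuronal genes 17 were above background (81.0%, against 56.6% of all genes), with a median signal of 1901. Prph, the intermediate filament of peripheral neurons, read 6756, 6799 and 7654, a mean of 7070 ± 507 (SD, n = 3), and ranked 83 of 14807. Map1b, a microtubule-binding protein of growing axons, read 5724, 6391 and 6722. Gap43, a growth cone protein, read 2909, 3382 and 3748, and Syt1, the calcium sensor of vesicle release, read 2859, 2887 and 3073. The members under the threshold were Rbfox3, the antigen NeuN of mature neurons (62, 58 and 50), the neurofilament genes Nefm (25, 13 and 18) and Nefl (14, 25 and -2), and Dcx, a microtubule protein of migrating neurons (23, 19 and 2).

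Genes for other transmitters were above background in 3 of 15 measured cases (20%, against 56.6% of all genes). Both tryptophan hydroxylase genes, whose enzymes start serotonin synthesis, were among them: Tph2 read 772, 952 and 879, and Tph1 read 338, 334 and 436. The serotonin transporter gene Slc6a4 read 8, 20 and 15. The third member above the threshold was Ache, acetylcholinesterase, at 196, 144 and 226. The vesicular glutamate transporter genes Slc17a6, Slc17a7 and Slc17a8 and the GABA genes Gad2 and Slc32a1 were below the threshold on every array, with 2, 6 and 7 for Gad2. Gad1, a GABA-synthesising enzyme, read 59, 92 and 52, and Chat, which makes acetylcholine, read 83, 81 and 57.

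Early neural crest genes were mostly under the threshold, with 5 of 16 above it (31.3%, against 56.6% of all genes). Ngfr, the p75 neurotrophin receptor, was the brightest at 1407, 1185 and 1148. Sox9 read 473, 281 and 441 and Pax3 235, 206 and 233, both factors of crest specification. Sox10, a factor of crest and glia, read 106, 57 and 95, Foxd3 read 57, 50 and 50, and Twist1 read 60, 51 and 47. Among neural progenitor genes 5 of 14 were above background (35.7%, also below the 56.6% of all genes). The RNA-binding proteins Msi2 (1846, 1949 and 1986) and Msi1 (854, 719 and 943) and the Notch target Hes5 (772, 644 and 578) led them, whereas the progenitor factor gene Sox2 read 3, 2 and 21 and the progenitor filament gene Nes read 16, 21 and 7.

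Genes of the mesenchymal neuroblastoma state were above background in 6 of 14 measured cases (42.9%, against 56.6% of all genes). Vim, the vimentin gene, was among the brightest of all genes at 9477, 8525 and 10132, as was Lgals1, a galectin, at 8812, 10061 and 12172. Fn1, the fibronectin gene, read 2715, 2860 and 3110. Notch2 (400, 308 and 305), Fosl1 (211, 192 and 297) and Fosl2 (240, 201 and 206) were dimmer but also above the threshold. Yet Prrx1, a homeodomain factor of that state, read 14, 26 and 22, and Yap1, a Hippo pathway coactivator, read 31, 31 and 25. Cd44, a hyaluronan receptor, the transcription factor gene Runx1 and the receptor gene Axl were also below the threshold on every array.

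Markers of other cell types cleared the threshold in 10 of 95 measured cases (10.5%), against 56.6% of all genes. All 5 measured astrocyte, 10 fibroblast, 9 epithelial, 5 melanocyte, 5 adrenal cortex and 4 erythroid markers were not above background on all arrays. The summed signal of the fibroblast list was 395, 364 and 308 on the 3 arrays, and the epithelial list summed to 337, 283 and 224. Defining markers at or near 0 included Gfap of astrocytes (6, -5 and -5), Epcam of epithelium (7, -9 and -5) and Ptprc, the pan-leukocyte antigen CD45 (10, 6 and 6). The oligodendrocyte and Schwann cell list summed to 4828, 4272 and 4392, with 3 of 9 measured members above background (33.3%). Most of the sum came from Pmp22, a myelin and growth arrest protein with 4030, 3602 and 3629. Cnp (340, 282 and 321) and Olig2 (114, 124 and 191) passed too, while the myelin genes Mbp (36, 47 and 24) and Mog (21, 8 and 15) were under the threshold.

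A few members of the lists of other cell types were above background, some of them only narrowly. Lin28a, an RNA-binding protein of embryonic stem cells that blocks let-7 maturation, read 1122, 1082 and 1273. Dazl, a germ cell RNA-binding protein, read 313, 490 and 427. Pou5f1 (24, 32 and 23) and Nanog (49, 34 and 65), the core factors of pluripotency, were not above the threshold. Cdx2, a homeodomain factor of gut and caudal embryo, was steady at 204, 197 and 189. Pecam1, an endothelial adhesion protein, read 233, 167 and 110, while the endothelial genes Cdh5 (20, 19 and 25) and Tek (11, 16 and 7) were dim. With the 99th percentile of the background genes as the threshold, Lin28a passed and Dazl, Cdx2 and Pecam1 did not.

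**Figure D3:**
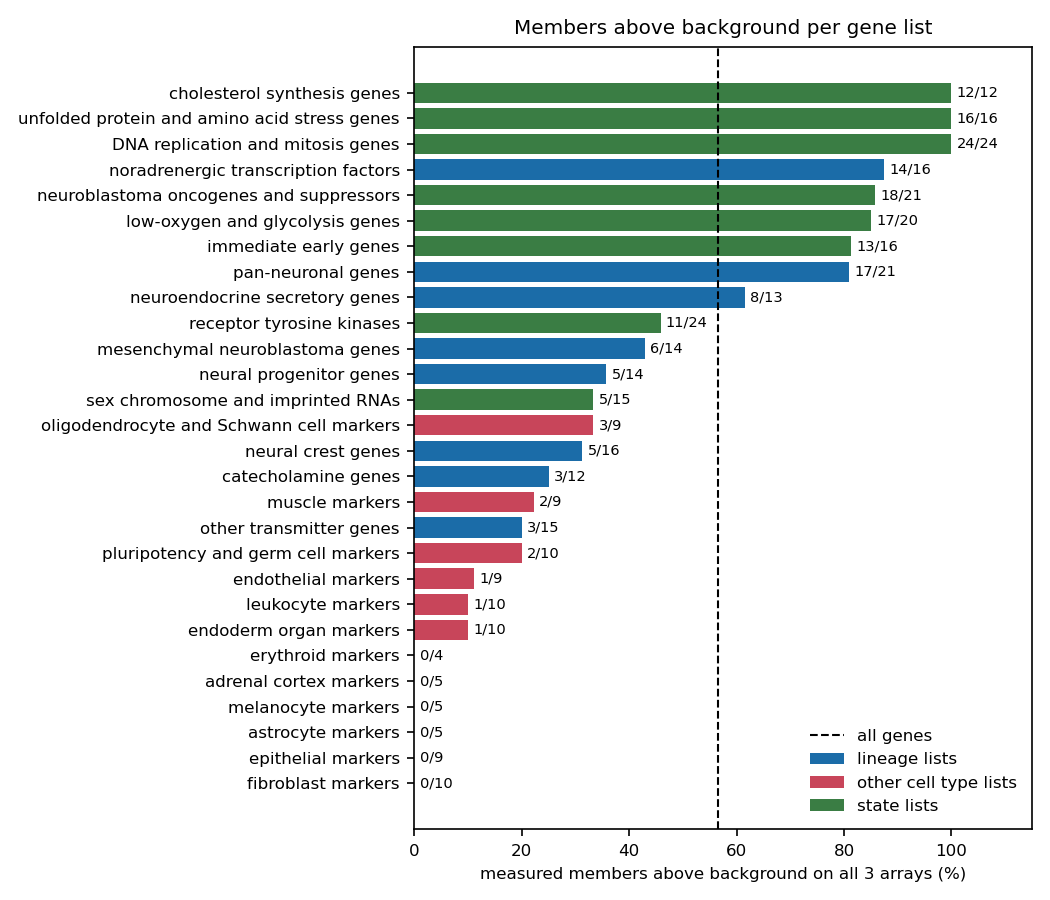
Share of measured members above background on all 3 arrays (horizontal axis, percent) for each of 28 gene lists, with member counts printed beside the bars, bar colour by kind of list and a dashed line at 56.6% for all genes. DNA replication, stress and cholesterol synthesis lists stand at 100%, and every list of another cell type lies left of the line.

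HOX genes record the position of a cell's ancestors along the body axis, and their paralog groups lie in order along 4 clusters. Of 32 measured HOX genes 5 were above background, against 56.6% of all genes. All of them were in the HOXB and HOXC clusters and in paralog groups 6 to 10. Hoxc9 read 606, 645 and 710, Hoxc10 read 535, 426 and 513, and Hoxb8 read 419, 379 and 260. Hoxb7 (165, 171 and 273) and Hoxc6 (188, 153 and 186) were dimmer. Between them, Hoxc8 read 150, 135 and 71 and cleared the threshold on arrays 1 and 2 only. None of 12 measured genes of paralog groups 1 to 5 passed, the highest mean among them being 88, nor did any of 8 HOXA or 6 HOXD genes.

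**Figure D4:**
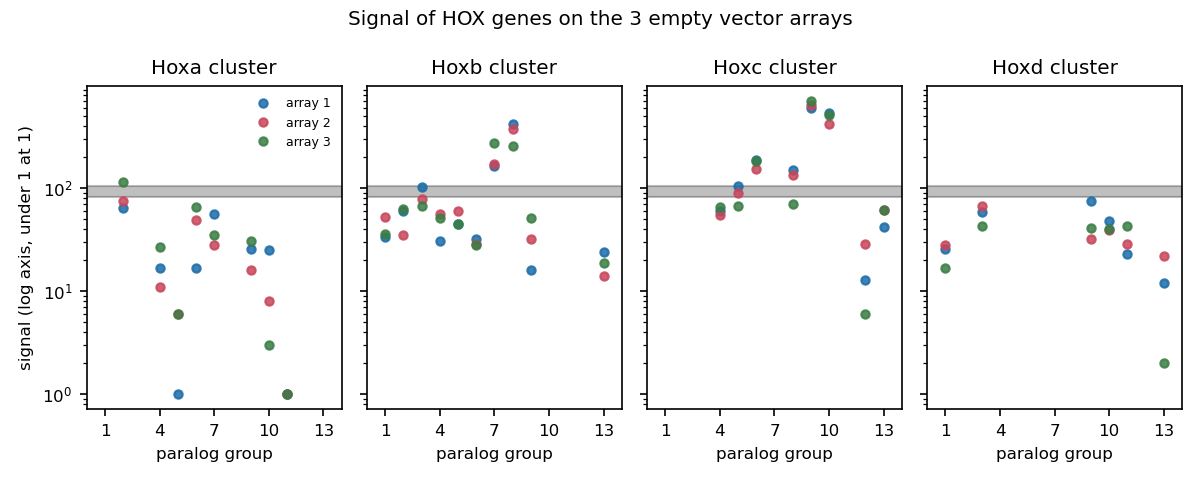
Signal (vertical log axis) of each measured HOX gene on the 3 empty vector arrays, by cluster (panels) and paralog group (horizontal axis), with the thresholds as a grey band. Points above the band on all 3 arrays are Hoxb7, Hoxb8, Hoxc6, Hoxc9 and Hoxc10.

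Growth control genes of neuroblastoma were above background in 18 of 21 measured cases (85.7%, against 56.6% of all genes). Myc read 4803, 6044 and 6086, rank 140, and Mycn, the family member amplified in many human neuroblastomas, read 1042, 1008 and 1188. Mycl read 102, 162 and 44 and missed the threshold on arrays 1 and 3. Ret, the receptor of GDNF family ligands, was the brightest of 24 measured receptor tyrosine kinases at 4713, 4865 and 5255. The suppressor gene Cdkn2a, with 592, 746 and 838, was above the threshold together with its neighbour Mtap (1220, 1505 and 1573), whereas Cdkn2b missed the threshold on array 3.

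Of the receptor tyrosine kinases 11 of 24 were above background (45.8%, against 56.6% of all genes). Ntrk3, the neurotrophin-3 receptor, read 652, 652 and 670, while Ntrk2, the BDNF receptor, read 15, 12 and 9. Ddr2, a collagen receptor, read 1912, 2928 and 1740. Kit (19, 32 and 22), Met (21, 28 and 13) and Pdgfra (43, 33 and 32) were under the threshold. Among Y-linked genes 0 of 5 passed, with Kdm5d at 9, 7 and 11 and Eif2s3y at 21, 13 and 14, while the X-linked partner genes Kdm5c (1733, 1519 and 2212) and Eif2s3x (4089, 4383 and 5436) were bright. Imprinted Peg3 read 1236, 979 and 1221, while H19 (8, 10 and -3) and Igf2 (45, 42 and 27) were dim.

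In 36 small gene families with a measured member, 89 of 134 measured genes were above background (66.4%, against 56.6% of all genes). In several families a neuronal member passed beside the ubiquitous one. All 4 ELAV-like genes passed, with 4141, 4397 and 5605 for the ubiquitous Elavl1 and 1656, 1854 and 2192 for the neuronal Elavl4. All 3 PTB genes passed too, and Ptbp2, the paralog typical of neurons, read 1420, 1611 and 1553. Kif5a, the neuron-specific kinesin-1 chain, read 509, 524 and 450, and Eef1a2, the elongation factor of neurons and muscle, read 3950, 3863 and 4557.

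In other families a single member or a subset passed. Rbfox2 read 1623, 1615 and 1815, while Rbfox1 (13, 25 and 27) and Rbfox3 were under the threshold. Of the GATA factors, Gata4, known from heart and gonad, read 1235, 1236 and 1495 beside Gata2 and Gata3, and Gata1, Gata5 and Gata6 were below the threshold. Ccnd1 (1374, 1483 and 1783) and Ccnd3 (450, 378 and 440) were above the threshold and Ccnd2 (46, 51 and 55) was not. Of 8 cadherin genes only Cdh2, neural cadherin (406, 360 and 438), and Cdh11 (124, 113 and 123) passed, and of 8 connexin genes only Gja4 (107, 390 and 210).

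In metabolic families some members were bright and others below the threshold. Slc2a3, the neuronal glucose transporter, read 6155, 4844 and 6662 and Slc2a1, the widespread one, read 1790, 792 and 1764, whereas the liver and muscle transporters Slc2a2 and Slc2a4 were below the threshold. Aldoa read 10293, 9331 and 11374 and the brain aldolase gene Aldoc read 1693, 854 and 1552. Pkm read 9983, 9821 and 13336 and the liver gene Pklr read 38, 56 and 39. The lactate dehydrogenase gene Ldhb, which is common in heart and brain, read 25, 44 and 4, and the testis gene Ldhc read 0, 13 and 4. Only these 2 of 3 listed lactate dehydrogenase genes were measured, so the readings do not cover the whole family. Tmsb10, an actin-binding thymosin, read 2427, 2494 and 3524, while Tmsb4x read 4, 3 and 10, a single row for a gene active in most cells, so its low reading has the same limit as Rpl31.

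Genes were also grouped by the first letters of their symbols. All 46 mitochondrial ribosomal protein genes named Mrpl, all 24 RNA polymerase genes named Polr and all 17 nucleoporin genes named Nup were above background. Zinc-finger genes named Zfp passed in 166 of 208 cases (79.8%) and kinesin genes named Kif in 21 of 27. Solute carriers named Slc stood at 160 of 316 (50.6%), near the 56.6% of all genes. At the low end were interleukins and their receptors (13 of 73, 17.8%), keratins named Krt (3 of 37) and C-type lectins named Clec (1 of 24).

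Promoters were compared after the values were seen, as a description. RefSeq promoter windows (250 bases before to 50 after the annotated start, GRCm38.p6) matched 11836 of the 14807 genes by Entrez identifier. The median ratio of observed to expected CpG was 0.78 for the 6893 matched genes above background and 0.35 for the 4943 others. Background genes with a matched promoter were kept in this split, although they set the threshold and mostly lay below it. The letters TATAAA occurred on either strand in 8.27% of windows of genes above background and 18.9% of the others.

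The 3 arrays differed little for most genes. Genes above background had a median coefficient of variation of 11.5%, with quartiles of 7.58% and 16.3% and 16 of 8382 above 50%. Among the 1481 brightest genes the median was 11.6%. Among the 8 lineage lists the pan-neuronal genes above the threshold had the lowest median, 8.10%.

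The genes that varied most shared an order of the arrays. Of the 12 genes with the largest coefficient of variation among the brighter genes above background, 10 were highest on array 2 and lowest on array 3, an order shown by 12.6% of all genes above background as deposited and 18.1% with the arrays centred. Alk, a receptor tyrosine kinase mutated in neuroblastoma, read 712, 3325 and 598, above the threshold on each array. Array 2 pulled its mean of 1545 ± 1543 (SD, n = 3) above the other readings. Slc7a11, the cystine transporter, read 813, 1771 and 679. Trib3, a pseudokinase induced by amino acid lack and endoplasmic reticulum stress, read 1890, 3036 and 1190, and Nupr1, a stress-induced chromatin protein, read 1843, 3130 and 1059. Egr1, an early response factor, read 1168, 2224 and 911.

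Deviations of each array from the 3-array mean were then taken on the log2(signal + 16) scale, with each array centred on its median over genes above background. On this scale array 2 was highest for 30.5% of all genes above background and lowest for 30.3%. Within the stress list array 2 was highest for 12 of 16 genes, with a median deviation of 0.11. The members differed. Slc7a11 (0.81), Trib3 (0.66), Ddit3 (0.55), Chac1 (0.54), Sesn2 (0.45) and Herpud1 (0.45) deviated most on array 2. Phgdh (0.23) and Psat1 (0.04), enzymes of serine synthesis, Asns (0.05) and the transcription factor gene Atf4 (0.09) deviated less. Genes of protein folding in the endoplasmic reticulum lay on both sides of the mean: the chaperone genes Hspa5 (-0.22) and Hsp90b1 (-0.10), the disulfide isomerase gene Pdia4 (-0.18) and the factor gene Xbp1 (-0.18) were below it, and the cochaperone genes Dnajb9 (0.13) and Sdf2l1 (0.03) above it.

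Low-oxygen and glycolysis genes had the opposite order, with array 2 lowest for 15 of 17 members above background and a median deviation of -0.19. The exceptions were Vegfa and Hif1a. Slc2a1 (-0.78), Ankrd37 (-0.69), Bnip3 (-0.64), Aldoc (-0.62) and Pdk1 (-0.62) deviated most on array 2. Adm, adrenomedullin, read 249, 55 and 423 and so failed the threshold on array 2 alone. Cholesterol synthesis genes were lowest on array 2 in 12 of 12 cases, with a median of -0.23, as for Hmgcs1, an early enzyme of the mevalonate route, at 2154, 1274 and 2549. DNA replication and mitosis genes were all above background, and 21 of 24 were highest on array 3 after centring, against 36.6% of all genes above background. Among them was Aurka, a mitotic kinase, at 1931, 1741 and 2671. The state of the cultures was not recorded in the labels, and its part in these orders was not tested.

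**Figure D5:**
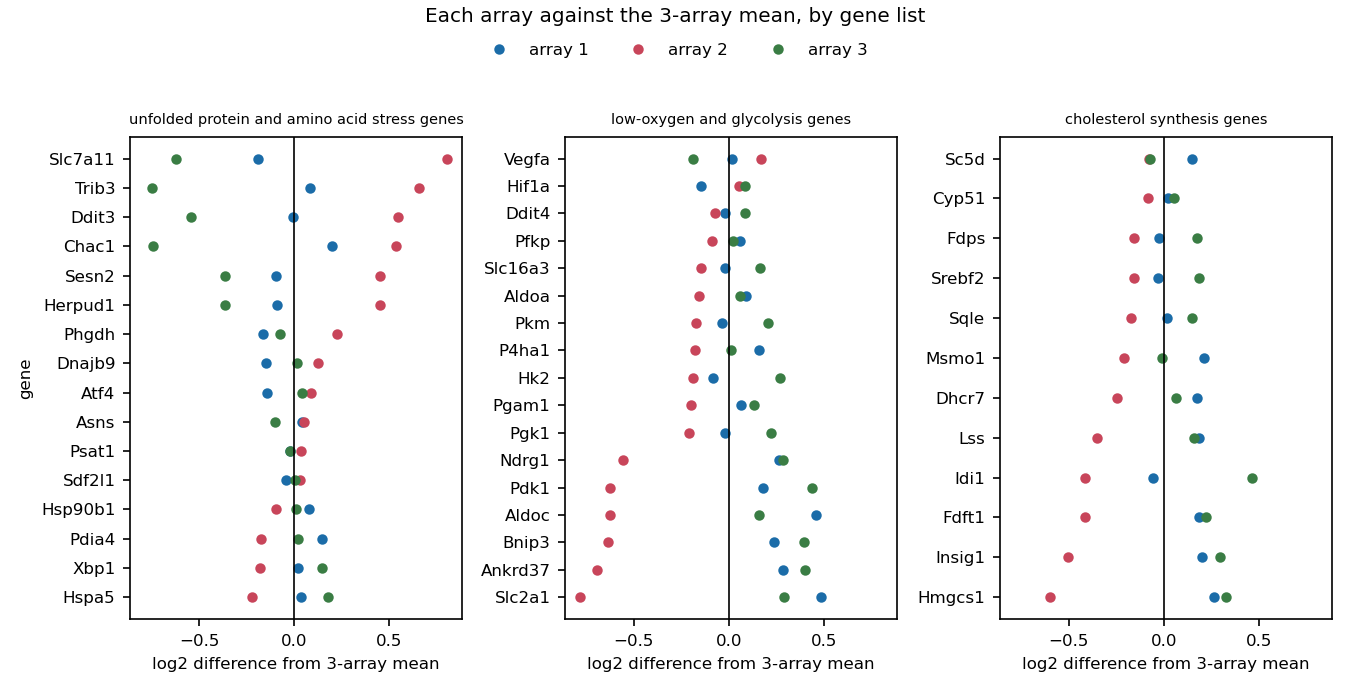
Log2 difference of each empty vector array from the 3-array mean after centring (horizontal axis) for genes above background of 3 lists, 1 colour per array. On array 2 Slc7a11, Trib3, Ddit3 and Chac1 lie to the right, and Slc2a1, Bnip3 and all 12 cholesterol synthesis genes to the left.

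Promoters of these lists were searched for the letters bound by factors of the pathways, on both strands. TGATGNAA, the core of the element that ATF4 binds with C/EBP factors, occurred in 5 of 16 stress genes (31.3%) against 3.45% of all matched genes. Among all matched genes above background the share was 2.77%. All 5 stress genes with it were highest on array 2, with a median deviation of 0.54, against 7 of 11 genes without it, whose median was 0.04. The genes without it included the folding genes Hspa5, Hsp90b1 and Pdia4 and the factor gene Xbp1, which were lowest on array 2. ACGTGC, which holds the core bound by hypoxia-inducible factors, occurred in 9 of 16 low-oxygen genes with a promoter (56.3%) against 8.47% of all matched genes. Among all matched genes above background it occurred in 10.1%. Array 2 was lowest for 8 of 9 genes with these letters and for 6 of 7 without. Both lists were picked from genes of these pathways, so their shares are not independent of that choice. Whether the letters have a part in the order of the arrays was not tested. A match is a description of the window and not a site shown to be used. The stretches below show where the letters fall in all 5 stress genes with a match and in the 3 low-oxygen genes with a match that deviated most on array 2, from RefSeq GRCm38.p6, written 5′ to 3′ in the direction of the gene with each match and 30 bases to either side where the window allows, and the matching letters in capitals.
Trib3, chr2:152344011-152344076, minus strand: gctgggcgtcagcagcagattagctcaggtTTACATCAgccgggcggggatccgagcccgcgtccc
Chac1, chr2:119351019-119351086, plus strand: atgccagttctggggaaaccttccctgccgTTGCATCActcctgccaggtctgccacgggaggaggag
Slc7a11, chr3:50443623-50443709, minus strand: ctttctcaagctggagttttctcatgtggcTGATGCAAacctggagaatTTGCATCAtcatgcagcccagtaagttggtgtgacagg
Herpud1, chr8:94386287-94386354, plus strand: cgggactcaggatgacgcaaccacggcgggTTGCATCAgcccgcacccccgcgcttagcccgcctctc
Asns, chr6:7693195-7693262, minus strand: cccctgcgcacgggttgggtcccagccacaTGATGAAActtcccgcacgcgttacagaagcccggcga
Slc2a1, chr4:119108679-119108744, plus strand: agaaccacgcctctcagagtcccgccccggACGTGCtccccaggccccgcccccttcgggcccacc
Bnip3, chr7:138909578-138909645, minus strand: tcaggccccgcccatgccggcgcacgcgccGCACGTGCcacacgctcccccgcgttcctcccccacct
Ankrd37, chr8:46000056-46000100, minus strand: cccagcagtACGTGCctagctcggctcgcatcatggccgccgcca

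Slc7a11 held 2 matches facing opposite ways, and in Bnip3 the letters of both strands overlap in 1 palindrome. Asns, although it carried the element, deviated by only 0.05 on array 2 and was among the 23 brightest genes on average. Ddit3 and Sesn2, which were high on array 2, had no match in their windows.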

How the data were processed

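The deposited intensity values, 1 column per array, are whole numbers on a linear scale, some below 0. Per the submitters' processing notes the authors used GCOS 1.3; their summarisation, background and scaling steps were not given in the sources used here. Genes were named through the platform annotation, with 14751 of 14807 matched to RefSeq (GRCm38.p6) by Entrez identifier, and the row with the highest mean over the 3 empty vector arrays stood for a gene. Signals were used without further normalization. No test was run, since a single group is described. The members, 66 gene lists (38 of them families), the background genes and the promoter motifs were chosen with earlier results of these data known. Named genes are the 20 brightest, up to 5 of the brightest members above background and 4 of the dimmest of each list with its defining markers, members of the families described, and the 12 with the largest coefficient of variation among genes above background whose mean exceeded the median of such genes, skipping predicted-gene names. Any other gene, the motifs and the description by array were chosen after the values were seen. The script was tested on simulated data. Python 3.11.15, pandas 2.3.3 and matplotlib 3.10.9 were used.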

Additional observations from a re-analysis of the deposited data

How the results depend on the processing

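The number of genes above background was 8382, with 9185 at the 90th and 6207 at the 99th percentile of the background genes, and between 8437 and 8559 when any 1 array was left out. Taking the highest background gene as the threshold left 746 genes, 13 lineage list members (61 before), 1 marker of another cell type (10 before) and 34 family members (89 before). Markers of other cell types above background numbered 16 at the 90th and 3 at the 99th percentile, and between 10 and 13 without any 1 array. With 1 array left out a gene has fewer thresholds to pass, so the counts of genes and of markers could hardly fall. Of 28 lists, 11 moved by over 1.5 times at the 99th percentile, 4 at the 90th, 21 with the highest background gene (where the 14 noradrenergic transcription factors and the 3 catecholamine genes above background both became 0), and 1 each without array 2, with 2 of 3 arrays required and with the dimmest row. Quantile normalization and scaling each array to the same median gave identical counts by construction, since the threshold is a percentile of each array. The median coefficient of variation of 11.5% became 9.32% after quantile normalization and 15.7% over all genes with a positive mean, and ranged between 8.49% and 11.5% without any 1 array. The lowest array correlation of 0.985 became 0.957 with a pseudocount of 1 and 0.989 with 50. The deviations of array 2 kept their sign in all 3 lists under either scaling, alternatives added after seeing the data. Scaling to the same median could move them little, since they were already centred on each array's median over genes above background. No paired analysis was possible because a single group is described and no test was made. Signals near the threshold, in 1191 genes, limit what can be said of dim genes.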

Other observations

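Single background genes read high on 1 array. Olfr1282, an olfactory receptor gene, read 8, -5 and 2409 on arrays 1, 2 and 3. Olfr545, another olfactory receptor gene, read 2016, 194 and 82. Neither was above background on all 3 arrays, and both were picked after their values were seen.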
